A study of Mus musculus with 6 samples.

Results

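Interferon response genes were examined in sorted mouse alveolar type II (AT2) cells as a fixed list of 42 symbols, covering interferon receptors, the signalling proteins and transcription factors beneath them, sensors of foreign nucleic acid, feedback inhibitors and antiviral effectors. The rule that defines the list uses no measured value, but the list was chosen with earlier results of these data known. Of the 42 genes, 41 were found among the 23337 gene symbols counted, and Ifi27 was not analysed here. A filter on low counts was passed by 35 of the 41 genes and by 12899 genes in all. The same 35 genes passed when mutant 1, a library that stood apart, was left out.

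The mutant libraries came from mice carrying SpC-CreER, Dlk1flox and ROSA-Tomato, and the wild-type libraries from mice carrying SpC-CreER and ROSA-Tomato, with 3 libraries of each. Both groups had acute lung injury from the bacterium Pseudomonas aeruginosa, and the time was 10 days after injury. Ages were not given in the sources used here. The SpC (surfactant protein C) promoter places the inducible Cre in AT2 cells, the surfactant-producing progenitors of the alveolus, and the cells were sorted for Tomato, so expression in other lung cells was not sampled by design. A protocol field also mentions culture for 8 days, and whether it applied to these libraries is not settled by the labels. Dlk1 codes for a transmembrane protein resembling Delta, a Notch ligand. The labels name separate samples without saying that each was a separate animal, so the p-values reflect sample-to-sample spread, which may be technical.

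Interferons are secreted when cells sense microbial nucleic acids. Type I interferons bind the receptor made of IFNAR1 and IFNAR2 and interferon gamma binds IFNGR1 and IFNGR2. Janus kinases at these receptors then phosphorylate STAT proteins. STAT complexes that contain IRF9 bind interferon-stimulated response elements in the promoters of antiviral genes, and the interferon gamma receptor acts mainly through gamma-activated sites. In the lung, epithelial cells keep a low level of many of these transcripts and raise them in infection.

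Library totals ran from 23718958 to 30695994 counts in the mutants and from 22511461 to 25332204 counts in the wild types, which puts the 3 counts that a zero allows at 0.0977 to 0.126 and 0.118 to 0.133 CPM (counts scaled to a common library total). The targeted gene Dlk1 had 2, 0 and 0 counts in the mutants, against 2, 0 and 2 counts in the wild types, too few to check the genotypes. The 8 AT2 markers examined summed to between 121378 and 133636 CPM in the mutants and between 129977 and 150547 CPM in the wild types, so all libraries carried the labelled cell type. Mutant 1 stood apart. In it 6 of 6 pan-leukocyte markers were higher than in each other library, and their sum was 446 CPM, with 12.1 and 25.2 CPM in mutants 2 and 3, against 22.0, 4.86 and 9.27 CPM in the wild types. The listed fibroblast, endothelial, club cell, ciliated cell, neutrophil, T and NK cell, B cell and dendritic cell markers were also all highest in mutant 1. Wild type 2 was the only library with a high level of Xist, made from the inactive X chromosome, at 184.6 CPM. The Y-linked gene Ddx3y stood at 70.5, 78.2 and 73.8 CPM in the mutants, against 49.8, 2.88 and 68.8 CPM in the wild types. By these genes wild type 2 differed in sex from the mutants, so sex appeared unbalanced between the groups. Fold changes of the 35 tested genes are given with all libraries and without mutant 1. Where 3 values are listed for a group, they are those of libraries 1, 2 and 3.

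No interferon response gene passed the test between mutant and wild-type cells. Leaving out mutant 1 turned the sign of the fold change in 8 of the 35 genes tested, and leaving out any other single library turned 3 to 5. The gene with the smallest p-value was Herc6, the ligase that attaches ISG15 in mice, followed by Ifi44, the RNA sensor gene Ddx58 and Ifi35. Each of these was higher in every mutant than in every wild-type library. At the other end the well-expressed genes Ifitm2, Parp9 and Ifnar1 were nearly level across all 6 libraries.

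In edgeR's quasi-likelihood test, 0 of 35 interferon response genes passed the 5% threshold on Benjamini-Hochberg adjusted p in either direction, as did 0% of the 12899 genes tested. At an unadjusted p under 0.05, 4 of the 35 were higher in the mutants (Herc6, Ifi44, Ddx58 and Ifi35) and 0 were lower, where 3.69% of all tested genes were higher and 2.89% were lower. Without mutant 1, 0 of 35 passed the adjusted threshold, and Herc6 and Ddx58 were higher at an unadjusted p under 0.05, where 3.01% of all tested genes were higher and 2.84% lower. DESeq2 called 0 of 41 after adjustment, against 0.176% of its genes called higher and 0.124% called lower. At an unadjusted p under 0.05 it had 7 of 41 higher and 0 lower, against 4.19% and 2.01% of its genes. The 7 were Herc6, Ddx58, Ifi44, Irf8, Oas2, Oas3 and Mx1. Oas2, Oas3 and Mx1 were below the count filter used for edgeR, and these and Irf8 had most of their counts in mutant 1. Without mutant 1, DESeq2 called 0 of 41, against 0.0534% of its genes called higher and 0.0771% lower, and had 2 higher (Herc6 and Ddx58) and 0 lower at an unadjusted p under 0.05, against 2.29% and 2.32%. limma-voom with sample quality weights called 0 of 35, with 4 higher and 1 lower, Irf1, at an unadjusted p under 0.05, against 4.76% and 5.24% of all tested genes.

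The log2 fold change (mutant minus wild type) was above 0 in 26 of the 35 genes with all libraries, where it was above 0 in 51.1% of all tested genes. Their median log2 fold change was 0.21, beside 0.0048 over all tested genes. Without mutant 1 it was above 0 in 20 of 35, with 48.1% for all tested genes, and the median was 0.019 beside -0.0090. The 8 genes whose sign turned without mutant 1 were Ifnar1, Ifngr1, Zbp1, Oas1a, Bst2, Ifitm3, Rsad2 and Parp9. Some of them lay near 0 in both fits, such as Ifnar1 (0.04 and -0.02) and Parp9 (-0.01 and 0.04). The share of all tested genes whose sign turned is not given here. By role, with all libraries the log2 fold change was above 0 in 4 of 4 nucleic acid sensors, 3 of 3 membrane factors, 3 of 5 STAT and IRF genes and 1 of 3 nucleotide enzymes. Without mutant 1 it was above 0 in 3, 1, 3 and 0 of them. In the plot of fold changes, the widest interval with all libraries was that of Irf8, from -0.10 to 6.56.

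**Figure D1:**
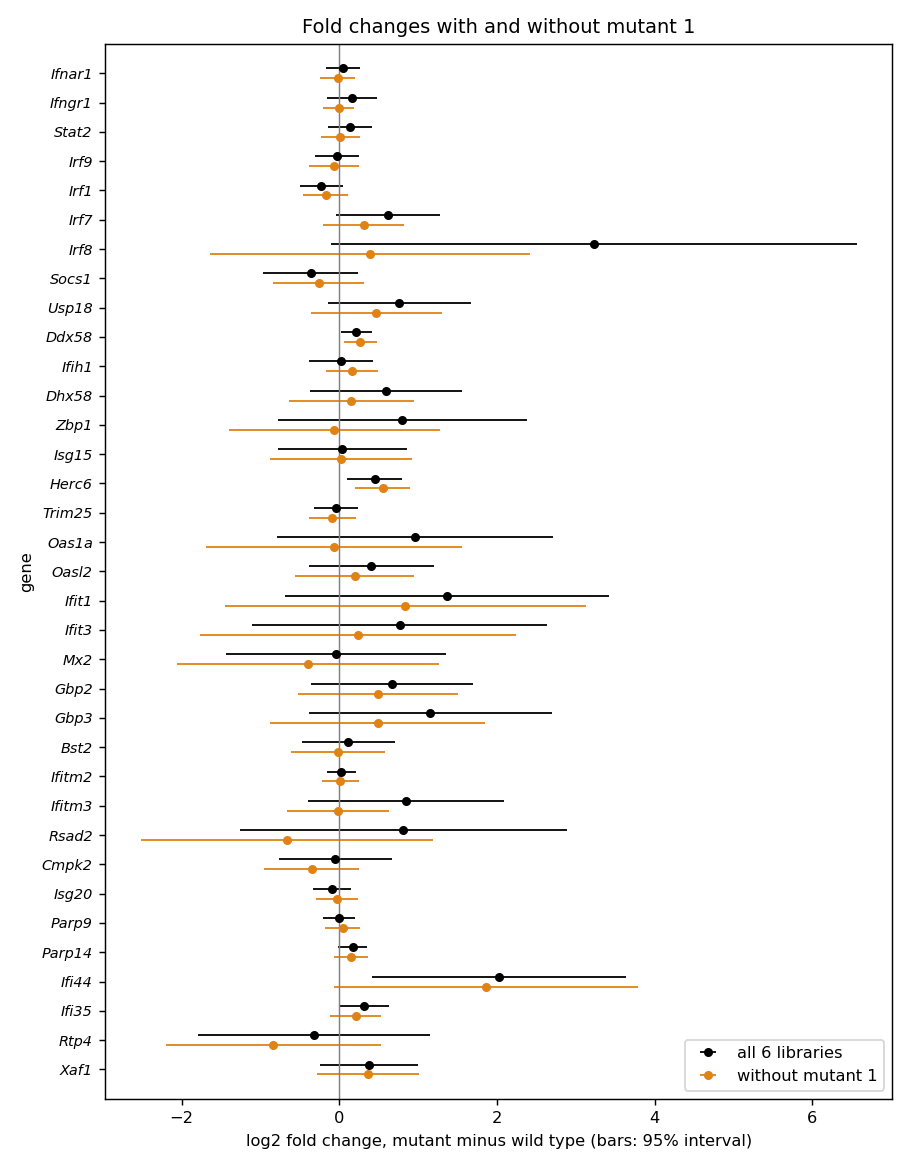
The log2 fold change (mutant minus wild type, x axis) of the 35 interferon response genes that passed the count filter, from the edgeR fit with all 6 libraries (black) and without mutant 1 (orange), with bars for the 95% interval. Irf8 moves from 3.23 with all libraries to 0.39 without mutant 1, while Herc6 (0.45 and 0.55) and Ddx58 (0.21 and 0.27) do not shrink.

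Of the 35 genes, 6 had all 3 mutant libraries above all 3 wild-type libraries and 0 had all of them below, where 5.23% and 6.43% of all tested genes did. They were Ddx58, Herc6, Parp14, Ifi44, Ifi35 and Xaf1. Of the 6 genes below the filter, Oas3 also had no overlap. A gene separated with all libraries stays separated when mutant 1 is left out, so the same 6 remained by construction. No other gene of the 35 joined them. Without mutant 1, 11.1% of all tested genes were higher and 11.7% lower with no overlap.

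**Figure D2:**
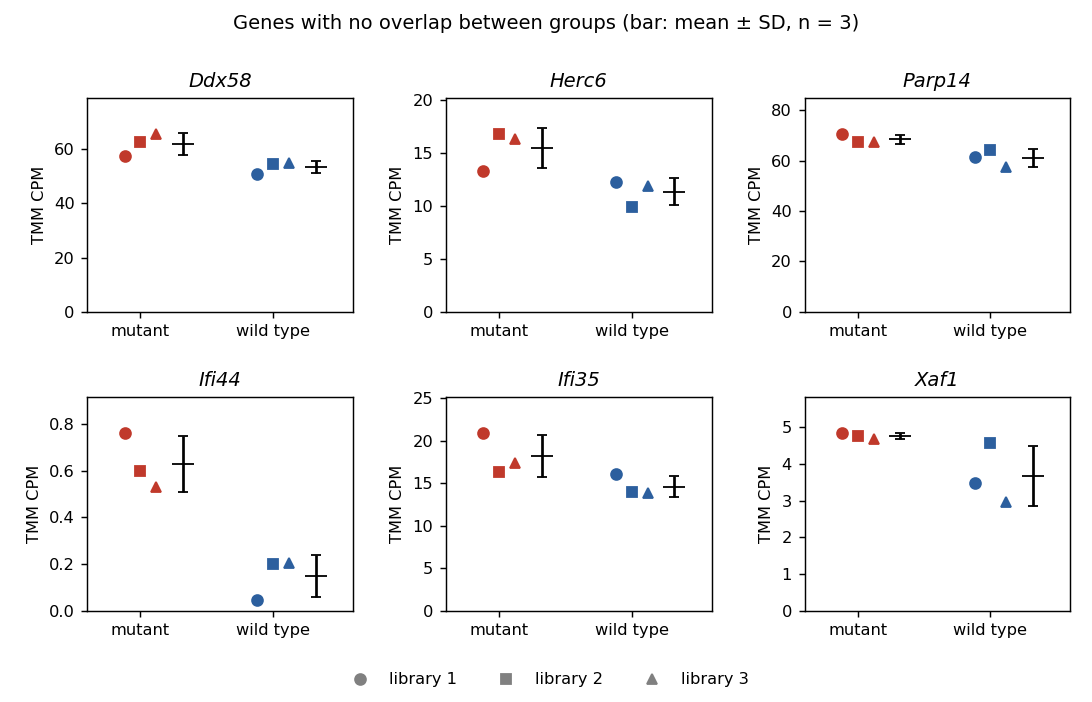
TMM-normalised CPM (y axis, from 0) of the 6 genes whose mutant libraries (red, left) all lay above the wild-type libraries (blue, right), with 1 symbol per library number and the mean ± SD beside each group (n = 3). Herc6 averaged 15.5 in mutants and 11.3 in wild types, and Ifi44 lay below 1 CPM in all 6 libraries.

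The promoters were compared for the 2 elements through which interferon signals. RefSeq promoter sequences (GRCm38.p6, from 250 bases before the start site to 50 after it) were matched for 32 of the 41 genes. The core of the interferon-stimulated response element (GAAA, any 2 bases, then GAAA again, read on either strand with overlapping matches allowed) was present in 15 of these 32 genes (46.9%), against 3.99% of the 27025 genes in the promoter table. The gamma-activated site TTCNNNGAA, which reads the same on both strands, was present in 9 (28.1%), against 9.55%. A match describes the letters of these windows and not a bound site. Among genes that passed the count filter, the 14 with the response element core had a median log2 fold change of 0.44 with all libraries and 0.016 without mutant 1. The 14 without it had medians of 0.24 and 0.093. Mutant 1 was the highest of the 6 libraries for 8 of the first 14 and 9 of the second.

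The windows of 5 genes are shown from 250 bases before the start site to 30 after it, 5′ to 3′ on the gene's strand, with each response element core in capitals. Isg15 has the classical arrangement of overlapping cores, Ddx58 and Herc6 are the genes at an unadjusted p under 0.05 both with and without mutant 1, and Ifitm2 and Ifitm3 are paralogs that differed in mutant 1.
Isg15 (chr4:156200789-156201068, minus strand): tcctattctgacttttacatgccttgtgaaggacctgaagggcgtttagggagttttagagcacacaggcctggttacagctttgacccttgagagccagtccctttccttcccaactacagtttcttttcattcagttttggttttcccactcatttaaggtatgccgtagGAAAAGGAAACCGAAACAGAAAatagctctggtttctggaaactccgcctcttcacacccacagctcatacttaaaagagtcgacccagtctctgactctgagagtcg
Ddx58 (chr4:40239796-40240075, minus strand): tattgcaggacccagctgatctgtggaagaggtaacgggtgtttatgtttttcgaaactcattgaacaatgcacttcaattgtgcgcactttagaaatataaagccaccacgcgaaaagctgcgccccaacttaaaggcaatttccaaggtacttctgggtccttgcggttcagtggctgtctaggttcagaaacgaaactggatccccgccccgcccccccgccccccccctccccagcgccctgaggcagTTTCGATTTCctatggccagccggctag
Herc6 (chr6:57580742-57581021, plus strand): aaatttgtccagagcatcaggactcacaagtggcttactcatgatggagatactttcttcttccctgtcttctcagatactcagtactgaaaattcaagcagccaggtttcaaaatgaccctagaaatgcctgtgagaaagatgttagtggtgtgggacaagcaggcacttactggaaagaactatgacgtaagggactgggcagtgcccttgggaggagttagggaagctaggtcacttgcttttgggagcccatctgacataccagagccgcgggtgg
Ifitm2 (chr7:140955932-140956211, minus strand): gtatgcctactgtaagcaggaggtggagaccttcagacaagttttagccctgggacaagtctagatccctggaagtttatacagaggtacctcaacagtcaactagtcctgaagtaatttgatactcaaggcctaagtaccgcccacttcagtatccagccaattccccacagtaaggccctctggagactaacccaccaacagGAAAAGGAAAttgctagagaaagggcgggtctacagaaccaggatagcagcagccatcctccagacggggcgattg
Ifitm3 (chr7:141010715-141010994, minus strand): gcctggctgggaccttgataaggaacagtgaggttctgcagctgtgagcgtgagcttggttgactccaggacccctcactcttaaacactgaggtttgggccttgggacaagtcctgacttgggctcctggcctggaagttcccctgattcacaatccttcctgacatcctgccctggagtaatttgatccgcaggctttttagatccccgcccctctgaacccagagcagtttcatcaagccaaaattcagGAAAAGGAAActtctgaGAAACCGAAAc
The Isg15 window holds 3 overlapping cores, that of Ifitm3 holds 2, and those of Ddx58 and Ifitm2 hold 1 each. No core in these letters was found in the Herc6 window.

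The receptor genes were steady outside mutant 1. Ifnar1, a chain of the type I interferon receptor, stood at 67.6, 59.2 and 60.2 TMM-normalised CPM (scaled between libraries by edgeR's trimmed mean of M values) in the mutants, against 62.5, 63.6 and 55.7 CPM in the wild types. The groups overlapped, and the log2 fold change was 0.04 ± 0.09 (SE; edgeR adjusted p = 0.928) with all libraries and -0.02 ± 0.10 without mutant 1. Ifngr1, the ligand-binding chain of the interferon gamma receptor, stood at 83.6, 60.3 and 61.2 CPM in the mutants, against 61.4, 61.2 and 60.7 CPM in the wild types. Only mutant 1 departed from the other 5 libraries, which lay within 60.3 and 61.4 CPM. Its log2 fold change was 0.16 ± 0.13 (edgeR adjusted p = 0.801), and without mutant 1 it was -0.01 with a 95% interval of -0.20 to 0.19.

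Among the transcription factors, the constituents of the STAT2 and IRF9 complex did not separate the groups. Stat2 averaged 39.8 ± 5.53 CPM in the mutants, against 36.4 ± 2.40 CPM in the wild types (SD, n = 3 each), with a log2 fold change of 0.13 ± 0.12 (edgeR adjusted p = 0.811) and 0.01 ± 0.11 without mutant 1. Irf9 averaged 31.3 ± 1.62 CPM in the mutants, against 32.1 ± 4.38 CPM in the wild types, with -0.03 ± 0.12 (edgeR adjusted p = 0.957) and -0.07 ± 0.14 without mutant 1. For both genes all 6 libraries overlapped.

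Irf1, a transcription factor induced strongly by interferon gamma, was among the genes with a lower mutant mean. It stood at 96.9, 118 and 101 CPM in the mutants, against 112, 119 and 140.2 CPM in the wild types. Mutants 1 and 3 lay below every wild type, while mutant 2 lay between wild types 1 and 2. This gave a log2 fold change of -0.23 (95% interval -0.50 to 0.04, edgeR adjusted p = 0.739), and -0.17 ± 0.12 without mutant 1.

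Irf7, the factor that amplifies interferon alpha production, had values of 11.7, 7.44 and 6.17 CPM in the mutants, against 4.80, 6.21 and 5.46 CPM in the wild types. Only mutant 3 lay within the wild-type range, just below wild type 2. Irf7 had a log2 fold change of 0.62 ± 0.28 (edgeR adjusted p = 0.737) and 0.31 ± 0.22 without mutant 1. Irf8, a factor of myeloid cells and B cells, had 28.2, 0.899 and 1.97 CPM in the mutants, against 1.69, 0.120 and 1.51 CPM in the wild types. Mutant 1 held 925 Irf8 counts, where the others held between 3 and 56, and it was 14.3 times the highest of them. The log2 fold change of 3.23 ± 1.42 (edgeR adjusted p = 0.737) became 0.39 ± 0.88 without mutant 1. The leukocyte markers stood high in the same library, as did the B cell markers, which summed to 131 CPM in mutant 1 and to 25.3 and 26.2 CPM in mutants 2 and 3, against 23.8 to 30.1 CPM in the wild types. Markers of non-immune lung cells were also high there, and the part of any of these cells in the Irf8 values was not tested. In bulk RNA, a change in the number of cells of a type and a change in RNA per cell cannot be told apart.

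The feedback inhibitors pointed in opposite directions without a call. Socs1, an inhibitor of Janus kinases, stood at 3.44, 4.32 and 4.37 CPM in the mutants, against 4.20, 5.85 and 5.58 CPM in the wild types, with a log2 fold change of -0.37 ± 0.25 and, without mutant 1, -0.26 ± 0.25. Usp18, which removes ISG15 and damps the type I receptor, stood at 8.08, 2.995 and 6.59 CPM in the mutants, against 3.66, 3.81 and 2.97 CPM in the wild types, with 0.76 ± 0.39 and, without mutant 1, 0.47 ± 0.36. Mutants 1 and 3 lay well above the wild types for Usp18 and mutant 2 lay among them.

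The nucleic acid sensors differed in how evenly they were expressed. Ddx58, which encodes RIG-I, the sensor of short viral RNA ends, stood at 57.4, 62.8 and 65.7 CPM in the mutants, against 50.8, 54.6 and 54.9 CPM in the wild types. All mutants lay above all wild types, the nearest pair being mutant 1 and wild type 3. It averaged 61.9 ± 4.19 CPM in the mutants, against 53.4 ± 2.28 CPM in the wild types (SD, n = 3 each). Its log2 fold change was 0.21 ± 0.08 (edgeR adjusted p = 0.737) with all libraries and 0.27 ± 0.09 (edgeR adjusted p = 0.819) without mutant 1. Its single response element core, shown in capitals above, lies just past the start site.

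Ifih1, which encodes the long double-stranded RNA sensor MDA5, stood at 34.4, 49.1 and 46.9 CPM in the mutants, against 41.1, 51.0 and 36.7 CPM in the wild types. The groups overlapped and mutant 1 was the lowest of all, with a log2 fold change of 0.02 ± 0.17, or 0.16 ± 0.14 without mutant 1. Dhx58, a RIG-I relative (LGP2) that modulates these sensors, had 6.34, 2.40 and 3.70 CPM in the mutants, against 3.34, 2.56 and 2.36 CPM in the wild types. Zbp1, a sensor of Z-form nucleic acids that can trigger cell death, had 4.48, 0.813 and 1.76 CPM in the mutants, against 1.69, 1.64 and 0.733 CPM in the wild types. Both were highest in mutant 1. For Dhx58 the log2 fold change of 0.59 ± 0.41 became 0.15 ± 0.34 without it, and for Zbp1 the log2 fold change of 0.80 ± 0.67 became -0.06 ± 0.58 without it.

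The groups overlapped for Isg15, which encodes a ubiquitin-like protein joined to other proteins in infected cells, and did not overlap for its ligase. Herc6 stood at 13.3, 16.8 and 16.4 CPM in the mutants, against 12.3, 9.89 and 11.8 CPM in the wild types, so every mutant was above every wild type. It averaged 15.5 ± 1.90 CPM in the mutants, against 11.3 ± 1.28 CPM in the wild types (SD, n = 3 each). Herc6 had a log2 fold change of 0.45 ± 0.15, with 0.10 to 0.80 as its 95% interval (edgeR adjusted p = 0.737), and 0.55 ± 0.15, with 0.20 to 0.90 as the interval (edgeR adjusted p = 0.819) without mutant 1. Isg15 itself stood at 2.16, 1.63 and 2.504 CPM in the mutants, against 2.47, 1.92 and 1.75 CPM in the wild types. Its groups overlapped throughout, with a log2 fold change of 0.04 ± 0.35, and 0.02 ± 0.39 without mutant 1. Trim25, a ubiquitin ligase that also joins ISG15 to proteins, averaged 106 ± 6.14 CPM in the mutants, against 109 ± 16.9 CPM in the wild types, a log2 fold change of -0.04 ± 0.12, or -0.09 ± 0.13 without mutant 1.

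The 2′-5′ oligoadenylate synthetase family, whose products activate RNase L, was scarce. Oasl2 was the best counted, at 9.97, 5.95 and 7.51 CPM in the mutants, against 7.31, 6.89 and 3.50 CPM in the wild types, with overlapping groups and a log2 fold change of 0.41 ± 0.34, or 0.19 ± 0.33 without mutant 1. Oas1a had 69, 8 and 19 counts in the mutants, against 15, 15 and 8 counts in the wild types, and its log2 fold change of 0.96 ± 0.75 became -0.07 ± 0.71 without mutant 1. Oas2, Oas3 and Oasl1 did not pass the count filter. Oas2 had 41, 0 and 4 counts in the mutants, against 0 in each wild-type library, Oas3 had 52, 4 and 4 counts in the mutants, against 0, 1 and 1 in the wild types, and Oasl1 had 39, 3 and 8 counts in the mutants, against 18, 7 and 1 in the wild types. Apart from mutant 1, the Oas2 and Oas3 counts were at or near the 3 counts that a zero allows.

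The IFIT genes, whose proteins bind viral RNA, were also near the limit of counting. Ifit1 had 28, 7 and 12 counts in the mutants, against 10, 2 and 2 counts in the wild types. Ifit2, which did not pass the count filter, had 105, 0 and 9 counts in the mutants, against 2, 14 and 6 in the wild types. Ifit3 had 47, 21 and 10 counts in the mutants, against 9, 25 and 4 in the wild types. All of them were highest in mutant 1, and the other 5 libraries overlapped between the groups. The log2 fold change was 1.37 ± 0.88 for Ifit1 and 0.76 ± 0.80 for Ifit3, and without mutant 1 it was 0.83 ± 0.99 and 0.23 ± 0.87.

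Among the antiviral GTPases, Gbp2 and Gbp3 encode guanylate-binding proteins that act against intracellular microbes. Gbp2 stood at 12.3, 4.75 and 12.9 CPM in the mutants, against 5.99, 8.85 and 4.03 CPM in the wild types. Mutants 1 and 3 were the highest libraries, but mutant 2 lay below wild types 1 and 2, and the log2 fold change was 0.67 ± 0.44, or 0.49 ± 0.44 without mutant 1. Gbp3 had 5.30, 1.54 and 2.29 CPM in the mutants, against 1.42, 2.16 and 0.529 CPM in the wild types, with 1.15 ± 0.65 and 0.49 ± 0.59 without mutant 1. The dynamin-like Mx genes were scarce, with 74, 1 and 6 counts of Mx1 in the mutants, against 1, 0 and 3 in the wild types, and 26, 15 and 7 counts of Mx2 in the mutants, against 16, 13 and 12 in the wild types. Mx1 did not pass the count filter, and Mx2 had -0.05 ± 0.59 and -0.39 ± 0.72 without mutant 1.

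The membrane proteins that block viral entry and release included both steady and uneven genes. Ifitm2 stood at 37.9, 38.1 and 36.0 CPM in the mutants, against 38.2, 35.2 and 36.9 CPM in the wild types, so the log2 fold change was 0.02 (95% interval -0.16 to 0.21), or 0.01 ± 0.10 without mutant 1. Its paralog Ifitm3 stood at 17.6, 4.11 and 6.07 CPM in the mutants, against 5.80, 5.69 and 4.03 CPM in the wild types, and its log2 fold change of 0.84 ± 0.53 became -0.02 ± 0.28 without mutant 1. Mutant 1 was 2.91 times the highest other library for Ifitm3 and 0.993 times for Ifitm2. Both promoter windows carry the response element core printed above, before the start site in Ifitm2 and just past it in Ifitm3. Ifitm1, which lies between them in RefSeq's gene order and did not pass the count filter, had 140, 8 and 5 counts in the mutants, against 25, 2 and 0 in the wild types. These genes are close paralogs, and the sources used here do not say how reads shared among them were counted. Bst2, which encodes tetherin, had 22.7, 13.05 and 22.2 CPM in the mutants, against 21.3, 18.9 and 13.4 CPM in the wild types, a spread within each group that exceeded the difference between them. The log2 fold change of Bst2 was 0.11 ± 0.25, and -0.01 ± 0.26 without mutant 1.

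Enzymes that act on viral nucleotides and RNA did not separate the groups. Isg20, an exonuclease, averaged 27.4 ± 2.41 CPM in the mutants, against 29.2 ± 2.24 CPM in the wild types (SD, n = 3 each), with -0.09 ± 0.10 and -0.03 ± 0.12 without mutant 1. Rsad2, which encodes viperin, and its neighbour Cmpk2, a mitochondrial nucleotide kinase, are adjacent in RefSeq's gene order. Rsad2 had 58, 10 and 4 counts in the mutants, against 8, 12 and 12 in the wild types, and its log2 fold change of 0.81 ± 0.88 became -0.66 ± 0.80 without mutant 1. Cmpk2 had 7.50, 4.24 and 4.58 CPM in the mutants, against 6.95, 5.45 and 4.52 CPM in the wild types, with -0.05 ± 0.31 and -0.35 ± 0.26 without mutant 1.

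The ADP-ribosyltransferase genes were well counted. Parp14, a macrodomain protein of this family, stood at 70.7, 67.6 and 67.4 CPM in the mutants, against 61.4, 64.3 and 57.4 CPM in the wild types. All mutants were above all wild types, by a small margin between mutant 3 and wild type 2. Its log2 fold change was 0.17 ± 0.08 (edgeR adjusted p = 0.737), and 0.15 ± 0.09 (edgeR adjusted p = 0.830) without mutant 1. Parp9, from the same gene cluster, averaged 43.7 ± 2.83 CPM in the mutants, against 43.9 ± 2.05 CPM in the wild types (SD, n = 3 each), which gave -0.01 ± 0.09 as log2 fold change, and 0.04 ± 0.10 without mutant 1.

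Of the remaining induced genes, Ifi44 had the largest fold change and the fewest counts of the 6 tested genes with no overlap. It had 25, 14 and 15 counts in the mutants, against 1, 5 and 5 counts in the wild types. The log2 fold change was 2.02 with a 95% interval of 0.42 to 3.63 (edgeR adjusted p = 0.737), and 1.86 with -0.07 to 3.78 (edgeR adjusted p = 0.819) without mutant 1. Ifi35 stood at 20.9, 16.3 and 17.3 CPM in the mutants, against 16.0, 14.0 and 13.8 CPM in the wild types, where mutant 2 and wild type 1 nearly met. Its log2 fold change was 0.32 ± 0.13 (edgeR adjusted p = 0.737), and 0.20 ± 0.14 (edgeR adjusted p = 0.840) without mutant 1. Xaf1, whose product binds the apoptosis inhibitor XIAP, had 4.85, 4.75 and 4.69 CPM in the mutants, against 3.47, 4.57 and 2.97 CPM in the wild types, a log2 fold change of 0.38 ± 0.26, or 0.36 ± 0.28 without mutant 1. Rtp4 had 3.84, 0.770 and 2.54 CPM in the mutants, against 4.07, 3.36 and 1.55 CPM in the wild types. Mutant 2 lay below every wild type and mutants 1 and 3 within their range, with -0.32 ± 0.62 (edgeR adjusted p = 0.915) and -0.84 ± 0.59 (edgeR adjusted p = 0.846) without mutant 1.

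**Figure D3:**
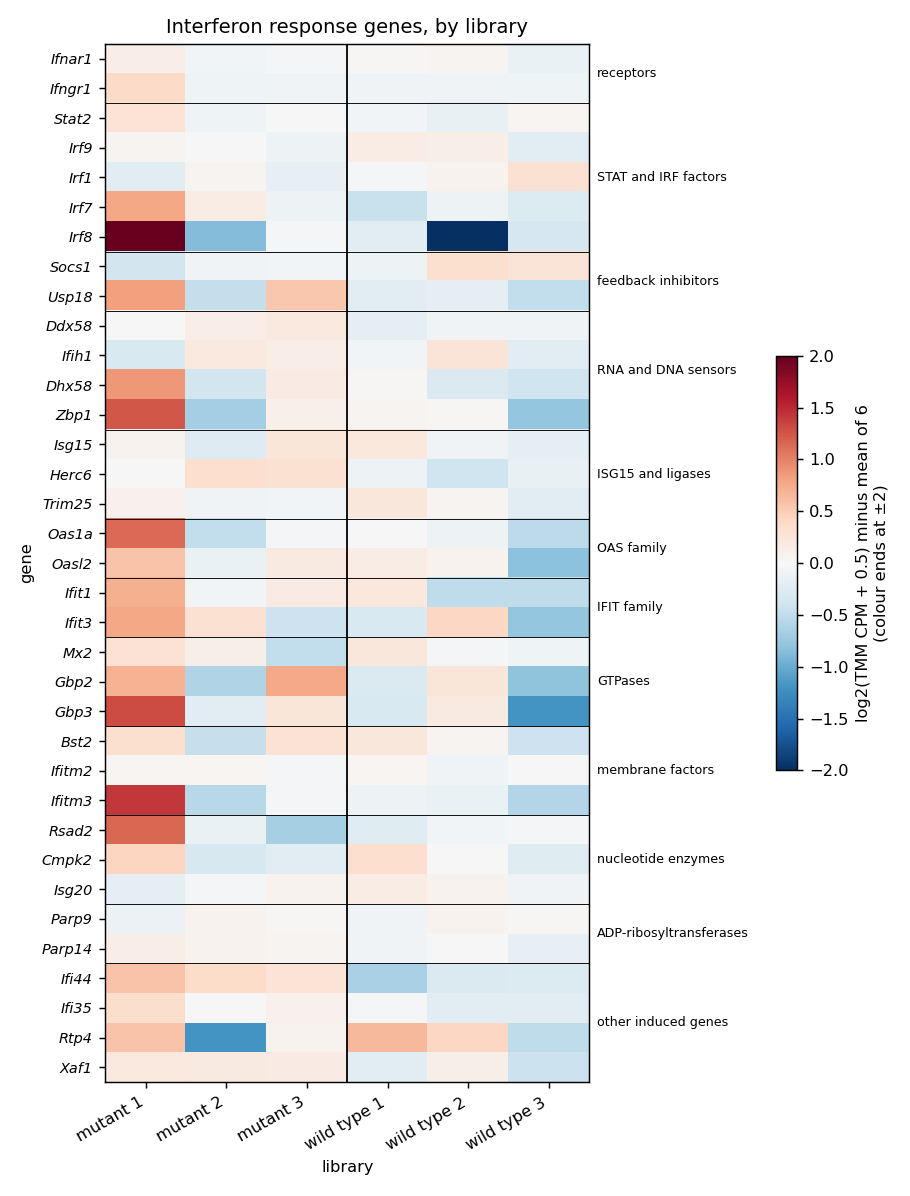
Level of each of the 35 interferon response genes (rows, grouped by role) in each library (columns, mutants left), as log2(TMM-normalised CPM + 0.5) minus the gene's mean over 6 libraries, with colour ending at ±2. Mutant 1 is the highest library for 22 genes and wild type 3 the lowest for 15.

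Levels across the genes were compared per kilobase of exonic length (the union of GENCODE vM21 exons on GRCm38, while the counts were made on mm9, so the scale is approximate). Ifitm2 was the highest, at 56.5 CPM per kilobase over the 6 libraries (53.7 to 58.3), and did not overlap Irf1, the next, at 28.8 (24.4 to 35.3). The levels of Irf1, Ifngr1 (22.7), Bst2 (20.6) and Trim25 (18.7) followed, and each overlapped the next over the 6 libraries. Irf1 and Ifngr1 overlapped only through mutant 1, at 24.4 and 29.4. In the other libraries Irf1 stood at 25.5 to 35.3 and Ifngr1 at 21.2 to 21.6. Ddx58 stood at 8.18 and Herc6 at 1.44 CPM per kilobase. The lowest were Oas3 (0.0466), Oas2 (0.0521) and Ifi44 (0.0636).

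The libraries were not equally ranked for these genes. Mutant 1 was the highest of the 6 for 22 of the 35, where it was highest for 23.9% of all tested genes, and it was at least 2-fold above each other library for 6 of the 35, namely Irf8, Zbp1, Oas1a, Gbp3, Ifitm3 and Rsad2, where it was so for 6.41% of all tested genes. Wild type 3 was the lowest for 15 of the 35, where it was lowest for 14.1% of all tested genes. Among the 5 libraries without mutant 1, wild type 3 was the lowest for 17 of the 35, with 17.6% for all tested genes, and mutant 3 was the highest for 12, with 17.3%.

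The size of the mutant 1 departure went with how low a gene was elsewhere. For the 12 genes at 20 CPM or more in the other 5 libraries, mutant 1 was 0.765 to 1.37 times their mean, with a median of 1.03, beside 0.949 for all tested genes at that level. For the 8 genes at 5 to 20 CPM the median ratio was 1.53 (all tested genes 1.02), and for the 9 genes at 1 to 5 CPM it was 2.02 (all tested genes 1.1998). Of the 12 genes under 1 CPM only 6 passed the count filter, and these had a median ratio of 2.86 (all tested genes 2.16). The other 6 ranged from 3.83 for Oasl1 to 44.3 for Oas2 and have no tested genes to be set against. The levels were divided after the values were seen, and the mean of the other libraries enters both quantities. Socs1 (0.708), Ifih1 (0.765) and Irf1 (0.820) were the genes lowest in mutant 1 relative to that mean. Dendritic cell markers summed to 87.0 CPM in mutant 1 and to 2.28 and 2.96 CPM in mutants 2 and 3, against 2.13, 0.316 and 0.842 CPM in the wild types, with all 5 of 5 highest in mutant 1 and Siglech, a marker of plasmacytoid dendritic cells, at 0 in mutant 2 and all wild types. Macrophage and monocyte markers summed to 232 CPM in mutant 1, to 59.2 and 73.8 CPM in mutants 2 and 3, and to 62.0 to 84.0 CPM in the wild types, with 5 of 7 highest in mutant 1. Neutrophil markers (5 of 5 highest in mutant 1) summed to 61.5 CPM in it and to 0.885 and 2.05 CPM in mutants 2 and 3, against 0.682 to 1.82 CPM in the wild types. The non-immune lists stood high as well. Fibroblast markers (6 of 6) summed to 215.8 CPM in mutant 1 and to 3.37 and 4.20 CPM in mutants 2 and 3, against 3.47 to 7.14 CPM in the wild types. Endothelial markers (6 of 6) summed to 70.5 CPM in mutant 1 and to 4.68 and 5.33 CPM in mutants 2 and 3, against 2.33 to 4.31 CPM in the wild types. Club cell markers (4 of 4) summed to 8660 CPM in mutant 1 and to 598 and 499 CPM in mutants 2 and 3, against 485 to 786 CPM in the wild types. Ciliated cell markers (3 of 3) summed to 48.1 CPM in mutant 1 and to 4.81 and 3.67 CPM in mutants 2 and 3, against 5.41 to 7.95 CPM in the wild types. The part of any of these cell types in the interferon response values was not tested. Mutant 1 was the lowest of the mutants for Herc6 and Ddx58, so leaving it out raised their fold changes.

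**Figure D4:**
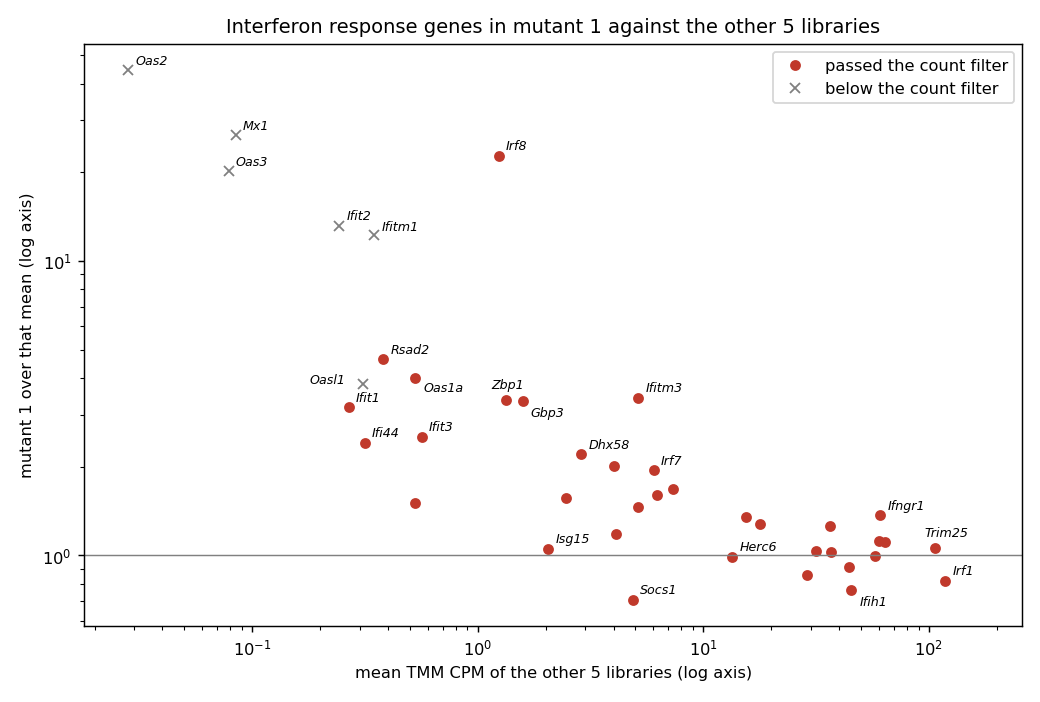
Ratio of mutant 1 to the mean of the other 5 libraries (y axis, log scale) against that mean in TMM-normalised CPM (x axis, log scale) for the 41 interferon response genes, with crosses for the 6 that did not pass the count filter. Genes at 20 CPM or more lie between 0.765 and 1.37, and Irf8 stands apart at 22.8.

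The rest of the pathway was examined as 57 further genes, also chosen with earlier results known, of which 53 were listed and 42 tested. Of the 42, 0 passed in edgeR. The log2 fold change was above 0 in 35 with all libraries, beside 51.1% of all tested genes. Without mutant 1 it was above 0 in 28, beside 48.1%. In 6 of the 42 all mutants lay above all wild types, where 5.23% of all tested genes did. These 6 were Ifngr2, Traf3, Gbp4, Gbp7, Samhd1 and Ddx60, and they were also the only ones of the 42 at an unadjusted edgeR p under 0.05. At that threshold 3.69% of all tested genes were higher and 2.89% lower. The median log2 fold change of all 42 was 0.18 with all libraries and 0.10 without mutant 1.

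Interferon transcripts themselves were nearly absent at this depth. Ifna1, Ifna4 and Ifne had 0 counts in all libraries, Ifna2 and Ifnb1 had at most 2, and Ifnk at most 4. Ifng, which is made by lymphocytes, had 73, 0 and 3 counts in the mutants, against 2, 0 and 1 counts in the wild types. T and NK cell markers summed to 54.3, 1.86 and 2.19 CPM in the mutants, against 1.999, 0.434 and 0.682 CPM in the wild types. The other marker lists apart from AT2 were also high in mutant 1, and the source of its Ifng counts was not tested.

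Among the other receptor chains and their kinases, Ifngr2, the signalling chain of the interferon gamma receptor, stood at 41.6, 37.4 and 39.2 CPM in the mutants, against 36.5, 30.2 and 26.9 CPM in the wild types, with no overlap and 0.34 ± 0.13 (edgeR adjusted p = 0.737). Jak1 had 0.15 ± 0.09 and Ifnar2 -0.14 ± 0.12. Of 8 tested sensor adaptors and kinases, 5 were positive and 3 negative, where 51.1% of all tested genes were positive. Traf3, an adaptor below the RNA sensors, stood at 35.9, 31.6 and 34.4 CPM in the mutants, against 28.7, 26.5 and 28.0 CPM in the wild types, with no overlap and 0.29 ± 0.09. Ikbke, a kinase that activates IRF3, had 1.82 ± 0.78 and, without mutant 1, 0.53 ± 0.52, while Mavs had -0.19 ± 0.12 and Tbk1 -0.10 ± 0.09.

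Genes typical of interferon gamma responses were positive in 12 of 13 tested, with a median of 0.40, beside 51.1% of all tested genes. Without mutant 1 they were positive in 10 of 13, with a median of 0.37, beside 48.1%. Gbp7 stood at 11.3, 9.46 and 10.4 CPM in the mutants, against 7.04, 7.93 and 4.89 CPM in the wild types, with no overlap, 0.65 ± 0.22, and 0.58 ± 0.23 without mutant 1. Gbp4 (2.49 ± 0.95), Gbp9 (1.95 ± 0.83) and Nlrc5 (1.09 ± 0.53), an activator of MHC class I genes, were highest in mutant 1, and became 0.79 ± 0.62, 0.54 ± 0.55 and 0.50 ± 0.43 without it. Of 14 other tested induced genes 13 were positive, with a median of 0.19, and 10 without mutant 1, with 0.09, beside the same shares of all tested genes. Samhd1, an enzyme that depletes deoxynucleotides, stood at 107, 91.2 and 97.5 CPM in the mutants, against 75.9, 76.0 and 74.0 CPM in the wild types, with no overlap. Its log2 fold change was 0.39 ± 0.08 (edgeR adjusted p = 0.737). The DESeq2 fit of all libraries called it (adjusted p = 0.0297), while the DESeq2 fit that omitted mutant 1 did not (adjusted p = 0.356), where edgeR gave 0.33 ± 0.08. Ddx60 had 1.10 ± 0.41, Sp100 1.27 ± 0.61 and Trim30a 1.01 ± 0.53, and these became 0.82 ± 0.42, 0.16 ± 0.25 and 0.67 ± 0.50 without mutant 1.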

How the data were processed

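RNA was measured in 3 mutant and 3 wild-type libraries of sorted AT2 cells. Each library had 1 deposited table of raw counts by gene symbol, in whole numbers and without normalization, and every row had a symbol. Per the submitters' processing notes the build was mm9 and the tools were CASAVA and DESeq2. The sources used here do not name the aligner, counter, annotation or strand setting, so overlapping genes, antisense pairs and paralogs can share reads.

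Counts were filtered with filterByExpr by group, scaled by TMM and tested with edgeR 4.0.16 in R 4.3.3 (quasi-likelihood F-test, two-sided, Benjamini-Hochberg over all 12899 tested genes, threshold 5%). Intervals are 95%. Gene values are TMM-normalised CPM, and marker sums and floors are CPM of the library total. Floors cover counting error only. The procedure was tested on 5 sets of simulated counts with 3 libraries per group and 200 changed genes. On average it recovered 22.1% of 1.5-fold, 48.4% of 2-fold and 76.1% of 4-fold changes, with 6.4 false among 103.8 calls. The simulated libraries shared the same mean profile apart from the changed genes. They held no library that stood apart as mutant 1 did and no pairing, so these shares need not apply to the real libraries. limma 3.58.1 and DESeq2 1.42.0 were alternatives. Further alternatives, given below, changed the scaling, the filter, the libraries and the pairing.

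The interferon genes and lists were chosen with earlier results of these data known. All 41 genes are named by role. The rule gave fold changes with adjusted p for receptors, STAT and IRF genes and for the 6 genes with the smallest p with all libraries or without mutant 1, and up to 4 genes of each further list, of which 1 gene is not reported here. Other named genes were chosen after their values were seen.

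Replicate pairs within a group differed by 18.4 to 76.7 in chi-square per degree of freedom, so none were duplicates. Library numbers 1 to 3 occur in both groups. After subtraction of group means, same-numbered libraries correlated at 0.28, 0.18 and 0.17, all over 0.1. Differently numbered libraries correlated at -0.22 to 0.077. The numbers were therefore treated as a possible pairing of the samples. Deviations within a group sum to 0, so these correlations are not independent of each other. No label states this pairing. The main fits did not use it, and a replicate block was one of the alternatives.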

Additional observations from a re-analysis of the deposited data

How the results depend on the processing

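No interferon response gene passed under any alternative tried, and the sign of 0 of 35 genes turned with DESeq2 size factors, upper-quartile factors, no filter or the replicate block. With the replicate block 0 genes passed and the median log2 fold change was 0.21, so it changed no call. Signs turned in 4 genes under limma-voom, in 8 without mutant 1, and in 3 to 5 without each other library. The matching shares of all tested genes are not given. Without 1 library at a time the median ran from 0.019 (without mutant 1) to 0.38, and over all genes 0 to 1 passed as higher and 0 as lower. The median was 0.39 with no filter and 0.41 in DESeq2, both over 41 genes and so including the 6 scarce ones, 0.024 in DESeq2 without mutant 1, and 0.049 without mutant 1 and wild type 2. Without these 2 libraries 10 of 35 genes did not overlap between the groups, against 32.3% of all tested genes. With all libraries it was 6 of 35, against 11.7%. Over all genes edgeR called 0 higher and 0 lower, while DESeq2 called 27 and 19, DESeq2 without mutant 1 called 9 and 13, and the replicate block without both libraries numbered 1, chosen after seeing the data, called 6 and 4. The cause of these differences between settings was not tested. The 6 genes below the count filter had at most 25 counts in each library other than mutant 1.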

Other observations

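Some genes of the interferon gamma response were uneven within both groups, and those named here were chosen after their values were seen. Iigp1, a GTPase that acts on vacuoles holding microbes, stood at 4.76, 2.27 and 15.3 TMM-normalised CPM in the mutants, against 2.42, 7.13 and 2.04 CPM in the wild types. The related GTPase gene Tgtp1 stood at 3.20, 2.52 and 7.37 CPM in the mutants, against 2.79, 4.69 and 3.71 CPM in the wild types. Both were highest in mutant 3, and wild type 2 was the highest of the wild types for both and for Gbp2. Mutant 1 was not the highest for either gene, and the cause of the unevenness was not tested. Trim30a stood at 12.3, 5.99 and 7.76 CPM in the mutants, against 2.88, 7.93 and 2.12 CPM in the wild types, where wild type 2 exceeded mutants 2 and 3.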
